A study of Homo sapiens with 12 samples.

Results

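The genes described here are 33 genes of cholesterol supply, taken by name from both expression tables of the study, which share 60558 gene identifiers, and all 33 were found in both tables. They comprise 2 enzymes that supply acetoacetyl-CoA, 6 enzymes from HMG-CoA synthase to farnesyl diphosphate, 11 enzymes of the squalene and sterol steps, 5 genes of the SREBP control machinery, 4 genes of intracellular transport and storage, and 5 genes of LXR signalling and export. RNA was sequenced from MDA-MB-231, an established human triple-negative breast cancer (TNBC) cell line, in 12 libraries that fall into 2 experiments. In one experiment, 3 libraries of negative control (NC) cells were set against 3 libraries of cells with NONO knocked down, and in the other 3 NC libraries of its own were set against 3 libraries of cells with PKM2 knocked down. The series was designed to find transcriptional targets shared by NONO, a nuclear RNA- and DNA-binding protein, and PKM2, a pyruvate kinase isoform that also acts in the nucleus, and its design text names siRNA as the means of knockdown. The NC groups are labelled wild type, and no library of a rescue or of another cell line was analysed here. No label says that libraries of 1 group came from separate cultures, so P values measure only the spread between these libraries.

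Cells make cholesterol from acetyl-CoA through mevalonate, farnesyl diphosphate and squalene, and close squalene into sterol rings that are then trimmed and rearranged in the endoplasmic reticulum. The transcription factors SREBP1 and SREBP2, encoded by SREBF1 and SREBF2, are held in that membrane with their escort SCAP by the INSIG proteins when sterols are plentiful, and otherwise move to the Golgi, are cleaved and switch the synthesis genes on. Liver X receptors (LXRs) respond to oxysterols and switch on export pumps and MYLIP, a ubiquitin ligase that removes lipoprotein receptors from the cell surface, while NPC1 and NPC2 release cholesterol from lysosomes and SOAT1 stores it as esters.

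RefSeq promoter windows on GRCh38.p14, which run from 250 bases before to 50 bases after a start site, were at hand for 29 of the 33 genes, in 39 windows. They were searched on both strands for the sterol regulatory element written TCACNCCAC, the E-box CACGTG and the CCAAT box. The direct-repeat LXR element named DR4 was searched as an exact repeat of AGGTCA, with no mismatch allowed. The promoter stretches of SREBF2 and MSMO1 are shown because the first holds the only match to the sterol regulatory element letters and the second holds a row of CCAAT boxes, and both genes fell in both experiments. Capitals mark the motif matches, and each stretch ends before the first exon base that GENCODE 29 gives for the gene. The SREBF2 stretch also lies over exons of its antisense transcript gene SREBF2-AS1.
SREBF2 promoter, chr22:41832855-41833078, plus strand: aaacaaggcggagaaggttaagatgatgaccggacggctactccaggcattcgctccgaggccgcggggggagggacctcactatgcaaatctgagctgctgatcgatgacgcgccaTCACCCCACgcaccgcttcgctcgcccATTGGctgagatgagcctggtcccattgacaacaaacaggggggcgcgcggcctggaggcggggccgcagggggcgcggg
MSMO1 promoter, chr4:165327419-165327622, plus strand: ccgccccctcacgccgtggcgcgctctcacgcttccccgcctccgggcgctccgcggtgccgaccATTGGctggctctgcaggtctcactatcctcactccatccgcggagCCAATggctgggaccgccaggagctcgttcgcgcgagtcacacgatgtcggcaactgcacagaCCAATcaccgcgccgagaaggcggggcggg
In SREBF2 the element, TCACCCCAC, lay 133 to 125 bases before the start, with 1 CCAAT box downstream of it, read on the other strand. MSMO1 held 4 CCAAT matches in its whole window, the last of them 34 to 30 bases before the start and beyond the stretch shown. The short stretches below show the E-boxes of a sterol enzyme, of the SREBP escort, of its retention protein and of the export pump, with 10 bases on each side and the E-box in capitals. They come from RefSeq on the same build.
SC5D, chr11:121292630-121292655, plus strand: gcgcggcgccCACGTGaccgcggaga
SCAP, chr3:47475984-47476009, minus strand: ccgctgggcgCACGTGcggagggcgg
INSIG1, chr7:155297813-155297838, plus strand: cgggcaggctCACGTGatgcgggccc
ABCA1, chr9:104928287-104928312, minus strand: gccccggctcCACGTGctttctgctg
The SC5D match lay 131 to 126 bases before the start of the window used, inside the first exon that GENCODE 29 gives for the gene, and that of ABCA1 lay 147 to 142 bases before it. The E-box letters were found in 6 of the 39 windows and 5 genes, which is 15.4% of them, against 7.26% of the 35116 promoters in the table. CCAAT matches stood in 22 of the 39 windows (56.4%), against 34.6% of all promoters. The sterol regulatory element stood in 1 window (2.56%) against 1.13% of all promoters, and the exact LXR repeat in 0 windows against 0.0199%. That exact repeat was found in 7 of the 35116 promoters, so its absence from 39 windows does not show that a gene lacks an LXR element. All the motif counts are matches of letters, several windows belong to 1 gene, and no difference between these shares was tested. The TM7SF2 match, with the CCAAT box read on the other strand and inside an exon of the neighbouring gene VPS51, is shown because TM7SF2 had the steepest fall of any synthesis gene after NONO knockdown.
TM7SF2, chr11:65111788-65111812, plus strand: ccgagcgccgATTGGctggtgtgct

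**Figure D1:**
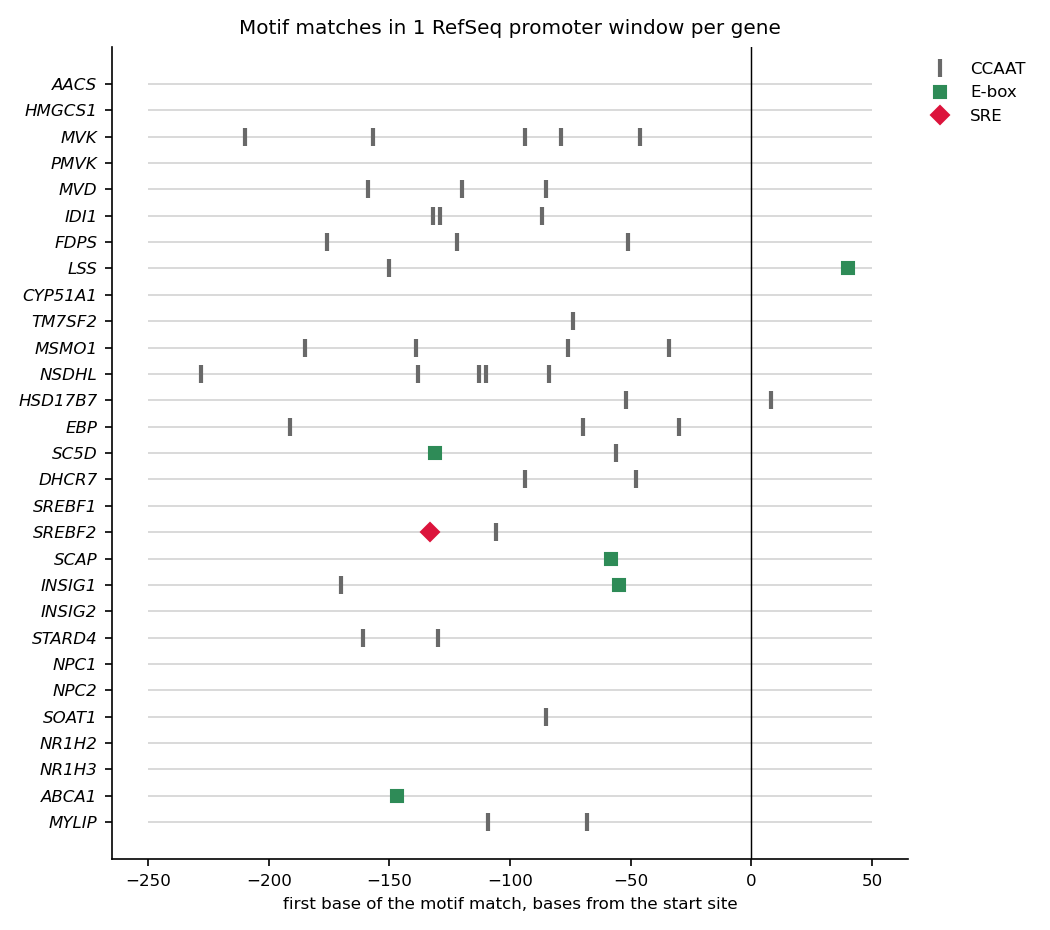
Positions of CCAAT, E-box and sterol regulatory element (SRE) matches in 1 promoter window of each of 29 genes, as the distance in bases of the first base of the match from the RefSeq start site (x axis); where a gene has several windows, the one with the lowest coordinate is drawn. CCAAT matches are the most frequent mark, E-boxes mark LSS, SC5D, SCAP, INSIG1 and ABCA1, and the only SRE match is that of SREBF2.

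The targeted genes were checked first. NONO held 391, 358 and 369 CPM (normalized read counts scaled to library size) in the NC libraries and 61.8, 64.3 and 61.9 CPM in the libraries labelled NONO knockdown, a log2 fold change of -2.57 ± 0.05 (SE). PKM, the gene that encodes PKM2 together with its other isoform, fell from 2280, 2210 and 2320 CPM to 218, 228 and 234 CPM with PKM2 knocked down, which is a log2 change of -3.32 ± 0.05 (SE). The depth was 19861762 to 20981712 estimated counts per library in the NONO experiment and 24097948 to 28455268 in the PKM2 experiment. Of the 12 libraries, NC library 1 of the NONO experiment and PKM2 knockdown library 3 stood apart from their replicates. As group means, VIM stood at 3380 to 4410 TPM (transcript abundance scaled for length and library size), KRT18 and KRT8 at 126 to 390, CDH1 at 0 to 0.02, and ESR1 and PGR at 0.157 or less. ERBB2, the HER2 gene, was present at 26.2 to 30.8 TPM in 3 groups and at 14.3 TPM after PKM2 knockdown, and transcript levels do not give the receptor status that the TNBC label rests on. Summed TPM over 7 markers of other cell types was 123 to 130 in NC and 151 to 157 after NONO knockdown, and 137 to 138 in NC and 55.1 to 56.2 after PKM2 knockdown, nearly all of it CD68, while CD3E was at 0 in every library and PTPRC had a group mean of at most 0.07.

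After NONO knockdown, 3 of the 32 tested genes rose and 15 fell at an adjusted P below 0.05 (edgeR's quasi-likelihood test, Benjamini-Hochberg adjustment over all genes tested). Over all 14832 genes tested, 16.2% rose and 17.2% fell, so the 46.9% of the cholesterol genes that fell lay above the background and the 9.38% that rose lay below it. With limma on log2(TPM + 1), which leaned downward over all genes (911 higher and 1734 lower of 13786), 1 cholesterol gene rose and 11 fell. In this edgeR fit none of the 32 met the cutoff of the paper's methods for a DEG, while 18 of the 32 passed the adjusted P. That cutoff asks for more than a 2-fold change and an unadjusted P below 0.05, and 437 genes, or 2.95% of all, met it here. The paper reports more DEGs after NONO knockdown than that, so its own list may differ from these calls. After PKM2 knockdown 5 genes rose and 15 fell, where 33.6% of all 15524 genes tested rose and 34.7% fell, so 15.6% of the cholesterol genes rose and 46.9% fell. The DEG cutoff was met by 4 of them, TM7SF2, SC5D and ABCA1 downward and NR1H2 upward, which is 12.5% against 20.8% of all genes. ABCG1, an export pump, held no more than 1 estimated count in any library and was not tested.

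The median log2 fold change of the 32 genes was -0.17 after NONO knockdown, where the median over all genes tested was -0.011, and -0.18 after PKM2 knockdown, where it was -0.015. In both experiments 10 genes fell, namely HMGCS1, AACS, FDFT1, TM7SF2, MSMO1, HSD17B7, SC5D, DHCR7, SREBF2 and INSIG2, of which 8 are synthesis enzymes. That is 31.2% of the 32 genes, where 9.93% of the 14525 genes tested in both experiments fell in both, and no test of this overlap was run. These 10 make up 10 of the 15 genes that fell in each experiment. With limma on log2(TPM + 1), the falls of HMGCS1, SREBF2 and INSIG2 after NONO knockdown were not called (adjusted P = 0.0719, 0.0767 and 0.0863). Without limma's TPM filter, those of TM7SF2 and HSD17B7 were not called either (adjusted P = 0.117 and 0.0788). SREBF1 and NPC1 passed the threshold in opposite directions, and 6 genes, MVK, MVD, FDPS, EBP, INSIG1 and NR1H3, passed it in neither experiment. The paired plot of fold changes shows the enzymes of the squalene and sterol steps lying mostly to the left of 0 in both experiments. The transport genes part, to the left or near 0 after NONO knockdown and to the right after PKM2 knockdown, except STARD4, which stays near 0 there.

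**Figure D2:**
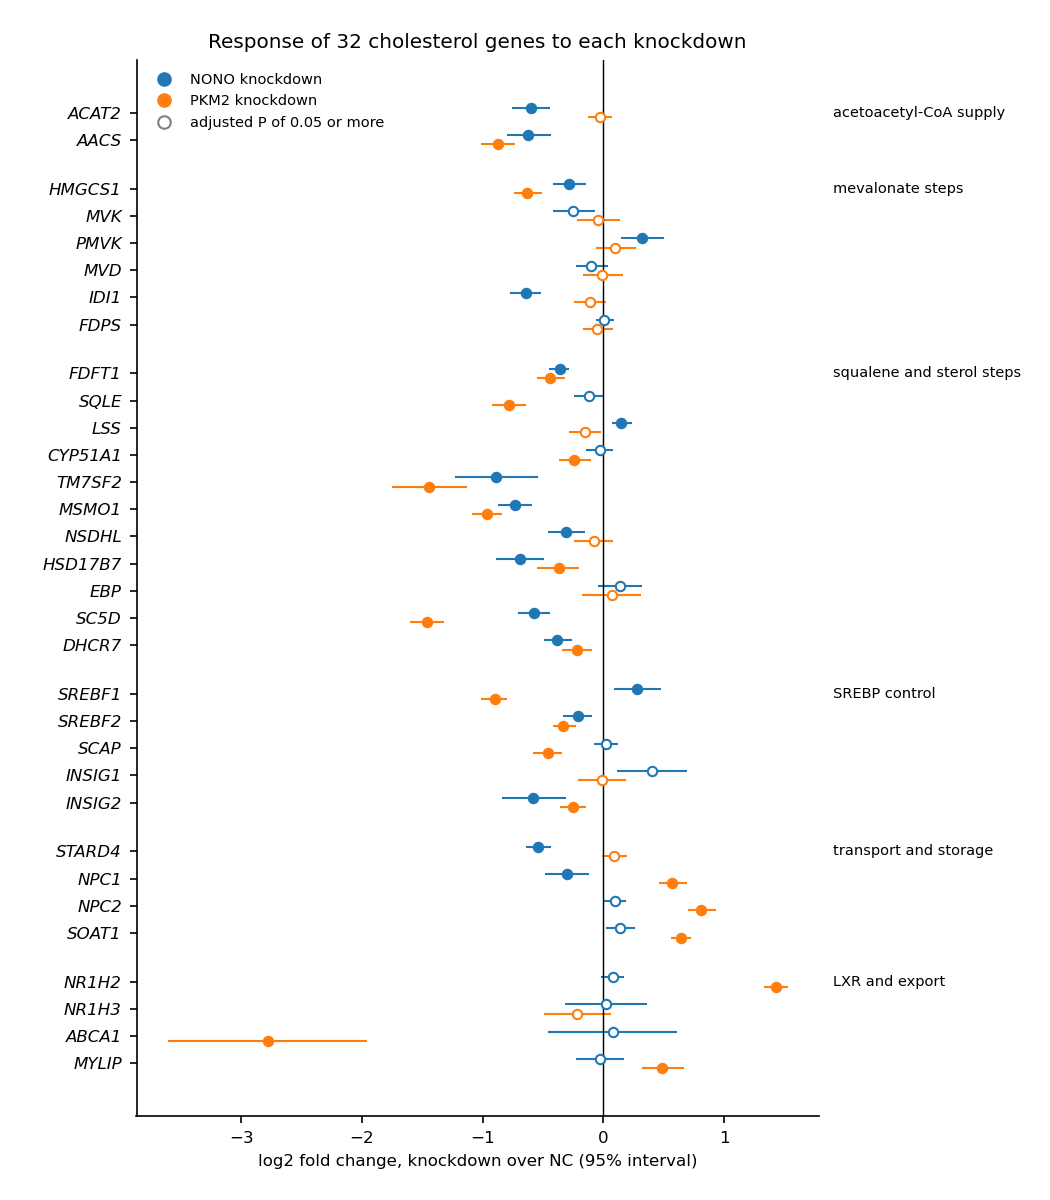
Log2 fold change of each of 32 genes, knockdown over NC (x axis, with 95% intervals by a normal approximation), in the NONO experiment (blue) and the PKM2 experiment (orange), ordered by role. Each estimate rests on 3 against 3 libraries, and open symbols mark an adjusted P of 0.05 or more. The lowest point is ABCA1 after PKM2 knockdown at -2.78 and the highest is NR1H2 after PKM2 knockdown at 1.43.

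Levels between genes were compared in TPM, which is scaled for transcript length. In the NC cells of the NONO experiment, NPC2 was the highest of the 33 genes at 420 ± 41.2 TPM (SD, n = 3), followed by FDPS at 303 ± 6.16 and FDFT1, the squalene synthase, at 181 ± 5.31. NPC1 at 116 ± 20.4 TPM and ACAT2 at 114 ± 11.9 TPM came next and did not differ beyond their spread. The same 3 genes led in the NC cells of the PKM2 experiment, with NPC2 at 411 ± 10.8 TPM, FDPS at 360 ± 19.5 and FDFT1 at 211 ± 11.3. Of the tested genes ABCA1 was the lowest in both, at 0.637 ± 0.271 and 0.313 ± 0.0702 TPM. SQLE, often the slow step of the sterol arm, stood at 19.4 ± 0.868 and 19.7 ± 1.32 TPM, below its neighbours in the pathway, FDFT1 and LSS. The tables were normalized separately, so these levels are read as an order of genes within each experiment.

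Summed over the 19 synthesis enzymes, the level was 1190, 1210 and 1200 TPM in the NC libraries of the NONO experiment and 1020, 932 and 967 TPM after knockdown. In the PKM2 experiment the sums were 1360, 1270 and 1410 TPM in NC and 1050, 1030 and 1070 TPM after knockdown. In both experiments every knockdown library lay below every NC library. The 11 enzymes of the squalene and sterol steps summed to 559 ± 11.0 TPM in NC and 431 ± 28.5 TPM after NONO knockdown (SD, n = 3 each), and to 607 ± 36.5 and 413 ± 4.93 TPM in the PKM2 experiment. No test was run on these sums. TPM leaned downward over all genes, with a median log2 change of -0.053 after NONO and -0.094 after PKM2 knockdown (limma on log2(TPM + 1)). In edgeR these medians were -0.011 and -0.015. In these bulk libraries, fewer cells with a transcript and less of it per cell cannot be told apart.

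**Figure D3:**
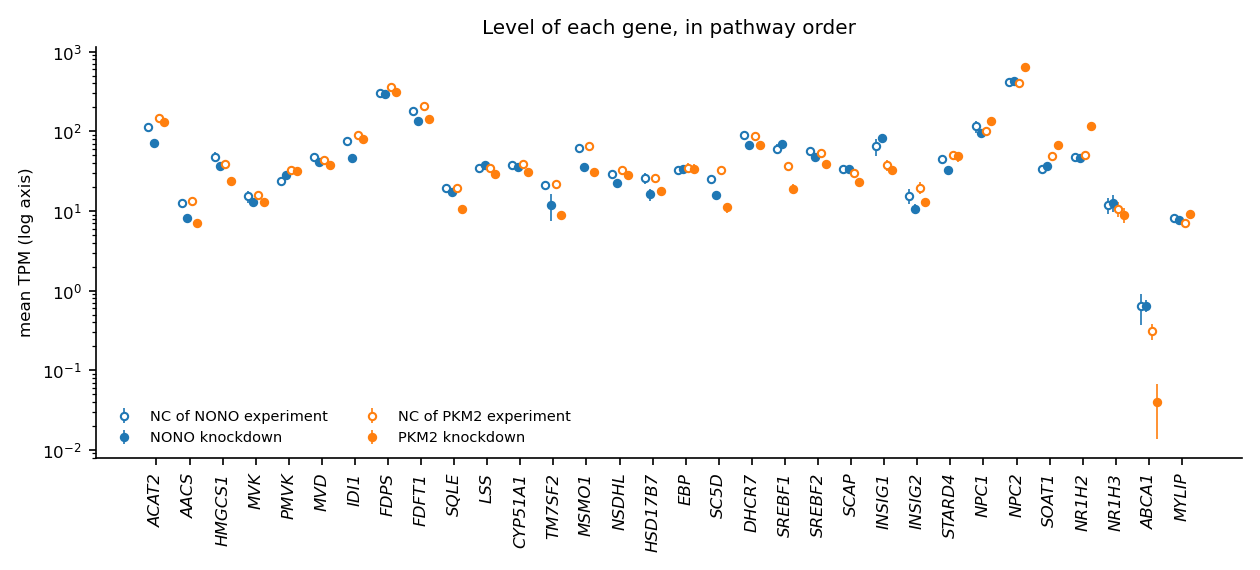
Mean TPM of each of 32 genes (y axis, log scale) in the 4 groups of 3 libraries, in pathway order from acetoacetyl-CoA supply to export, with error bars of 1 SD. Levels span from ABCA1 below 1 TPM to NPC2 above 400 TPM, and for NPC2, SOAT1 and NR1H2 the filled orange points of PKM2 knockdown stand above the open orange points of their NC.

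Of the enzymes at the head of the pathway, AACS, which makes acetoacetyl-CoA from acetoacetate, fell in both experiments. It held 30.6, 26.0 and 30.5 CPM in NC and 20.5, 16.9 and 19.3 CPM after NONO knockdown (log2 fold change -0.62 ± 0.09 SE, adjusted P = 4.95e-04, edgeR's quasi-likelihood test). In the PKM2 experiment AACS went from 29.6, 26.6 and 29.4 CPM to 15.6, 15.8 and 15.3 CPM (-0.87 ± 0.07, adjusted P = 6.21e-07). The groups did not overlap in either experiment. Such separation was common, here and for the genes below. With NONO knocked down, 46.1% of all genes tested had groups without overlap, against 59.4% of the 32 cholesterol genes. With PKM2 knocked down the shares were 71.9% and 62.5%, so groups lying apart do not by themselves set a gene off from the background. The difference between the AACS responses did not pass the threshold (log2 difference -0.27, 95% interval -0.51 to -0.03, adjusted P = 0.0775). ACAT2, the cytosolic thiolase that joins acetyl-CoA units, fell after NONO knockdown, from 119, 99.9 and 96.3 CPM to 73.5, 63.5 and 70.6 CPM (-0.60 ± 0.08, adjusted P = 2.12e-04). After PKM2 knockdown ACAT2 held 129, 127 and 136 CPM against 139, 127 and 134 CPM in NC (-0.03, adjusted P = 0.639), and the 2 groups overlapped, though limma on log2(TPM + 1) called a small fall (-0.16, adjusted P = 0.0117). The difference between its responses was 0.56 ± 0.10 (adjusted P = 2.08e-04). ACAT2 (chr6:159760328-159779055 in GENCODE 29, plus strand) shares exon bases with SOD2 and TCP1 on the opposite strand, and whether the counting used strand is not given in the sources used here. SOD2 rose after both knockdowns, by 0.74 and 1.43 on the log2 scale, and its part in the ACAT2 values was not tested.

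Of the 6 mevalonate enzymes, 1 was higher and 2 were lower after NONO knockdown, where 16.2% of all genes were higher and 17.2% lower. After PKM2 knockdown 1 of them was lower, where 34.7% of all genes were. IDI1, which isomerizes isopentenyl diphosphate, held 97.7, 102 and 98.6 CPM in NC and 70.0, 58.4 and 62.5 CPM after NONO knockdown (-0.64 ± 0.06, adjusted P = 2.36e-05). With PKM2 knocked down it held 104, 105 and 112 CPM against 123, 103 and 120 CPM (-0.11, adjusted P = 0.173), the groups overlapped, and the fall was called without the second NC library (-0.19, adjusted P = 0.0195). Its responses differed by 0.52 ± 0.10 (adjusted P = 2.71e-04). HMGCS1, the HMG-CoA synthase at the gate of the mevalonate steps, fell in both experiments and more so with PKM2 knocked down. Its values were 62.4, 70.8 and 73.1 CPM in NC and 61.1, 52.9 and 55.8 CPM after NONO knockdown (-0.28 ± 0.07, adjusted P = 0.0109), and 72.7, 66.2 and 68.9 against 47.0, 43.2 and 44.4 CPM in the PKM2 experiment (-0.63 ± 0.06, adjusted P = 1.90e-06). The log2 difference between the responses was -0.36 ± 0.10 (adjusted P = 0.00423), and the groups overlapped in neither experiment.

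The HMGCS1 fall after NONO knockdown did not pass without the third NC library (-0.23, adjusted P = 0.0564) or the second knockdown library (-0.23, adjusted P = 0.0637). PMVK, the second kinase of the pathway, rose by 0.32 ± 0.09 after NONO knockdown (adjusted P = 0.016), from 12.2 to 13.2 CPM in NC to 15.0 to 16.1 CPM. Without the second or the third knockdown library its adjusted P was 0.0603 or 0.0615. FDPS, which makes farnesyl diphosphate, did not pass the threshold in either experiment, with log2 fold changes of 0.01 (95% interval -0.06 to 0.09) and -0.05 (-0.17 to 0.08). MVD, the decarboxylase, had values of -0.10 and -0.01, and MVK, the first kinase, -0.25 and -0.04. MVK passed after NONO knockdown only without the first NC library (-0.29, adjusted P = 0.00956).

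Of the 11 enzymes of the squalene and sterol steps, 7 were lower and 1 higher after NONO knockdown, and 8 were lower and 0 higher after PKM2 knockdown. Over all genes, 17.2% were lower and 16.2% higher after NONO knockdown, and 34.7% and 33.6% after PKM2 knockdown. The median log2 fold change of the 11 enzymes was -0.36 and -0.37. MSMO1, the methylsterol monooxygenase (chr4:165327623-165343160), held 79.3, 88.7 and 82.5 CPM in NC and 55.9, 47.0 and 47.7 CPM after NONO knockdown (-0.73 ± 0.07, adjusted P = 2.23e-05). In the PKM2 experiment it went from 88.5, 78.1 and 91.7 to 43.7, 43.9 and 44.8 CPM (-0.96 ± 0.07, adjusted P = 1.17e-07). All knockdown libraries lay below all NC libraries in both experiments, and the difference between the responses was -0.24 ± 0.10 (adjusted P = 0.0521). TM7SF2, a sterol reductase of the endoplasmic reticulum and nuclear envelope, had 14.9, 17.7 and 17.2 CPM in NC and 12.2, 6.97 and 7.78 CPM after NONO knockdown (-0.89 ± 0.17, adjusted P = 0.00257). The first knockdown library was the highest of its group, and without it the change was -1.17. In the PKM2 experiment TM7SF2 held 13.2, 15.6 and 15.6 CPM in NC and 3.90, 5.97 and 6.46 CPM after knockdown (-1.44 ± 0.16, adjusted P = 7.09e-06), with no overlap.

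SC5D, a desaturase of the last sterol steps, set the experiments apart. It held 48.9, 45.2 and 48.7 CPM in NC and 34.7, 31.0 and 30.4 CPM after NONO knockdown (-0.57 ± 0.07, adjusted P = 1.00e-04), and 51.6, 48.9 and 52.7 against 19.9, 17.0 and 18.9 CPM in the PKM2 experiment (-1.46 ± 0.07, adjusted P = 8.14e-09). The groups lay apart in both, and the fall after PKM2 knockdown was the larger, by a log2 difference of -0.90 ± 0.10 (adjusted P = 8.11e-07). SQLE, the squalene epoxidase, changed in the PKM2 experiment, from 36.1, 31.7 and 35.8 CPM to 20.6, 20.2 and 19.5 CPM (-0.78 ± 0.07, adjusted P = 1.52e-06). After NONO knockdown SQLE held 32.8, 30.1 and 31.9 CPM against 34.7, 34.3 and 34.0 CPM (-0.12, 95% interval -0.24 to 0.00, adjusted P = 0.161), so all 3 knockdown libraries lay lower but the change did not pass the threshold. The difference between its responses was -0.67 ± 0.09 (adjusted P = 1.06e-05).

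HSD17B7, a sterol keto-reductase, went from 19.7, 23.9 and 22.6 CPM to 15.1, 12.5 and 13.4 CPM after NONO knockdown (-0.69 ± 0.10, adjusted P = 4.03e-04). With PKM2 knocked down its values were 18.8, 15.2 and 16.5 CPM against 22.3, 20.3 and 22.9 CPM (-0.37 ± 0.09, adjusted P = 0.00326), again without overlap. Annotated pseudogenes of HSD17B7 exist, as they do for FDPS, CYP51A1 and AACS, and how reads matching several copies were treated is not given in the sources used here. FDFT1 fell by 0.36 and 0.44 on the log2 scale, and DHCR7, the reductase that yields cholesterol, fell by 0.38 and 0.22. Without the third NC library of the PKM2 experiment the DHCR7 change was -0.16 (adjusted P = 0.0568). NSDHL, the sterol dehydrogenase, fell after NONO knockdown (-0.31 ± 0.08, adjusted P = 0.0123) and lost the call without the first knockdown library (-0.27, adjusted P = 0.0611) or the second (-0.27, adjusted P = 0.0657), while its value after PKM2 knockdown was -0.08. CYP51A1, the lanosterol demethylase, fell after PKM2 knockdown (-0.24 ± 0.07, adjusted P = 0.0094), except without the first NC library (-0.19, adjusted P = 0.0532), and stood at -0.03 after NONO knockdown.

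LSS, which closes squalene epoxide into lanosterol, was the only enzyme of the sterol arm that rose in either experiment, by 0.15 ± 0.04 after NONO knockdown (adjusted P = 0.0205). That call was lost without the first knockdown library (0.14, adjusted P = 0.0785) or the third (0.14, adjusted P = 0.085). After PKM2 knockdown LSS stood at -0.15 (adjusted P = 0.0586), and passed without the second NC library (-0.20, adjusted P = 0.0234) and with limma on log2(TPM + 1) (-0.27, adjusted P = 0.00749). Its responses differed by -0.32 ± 0.08 (adjusted P = 0.00347). EBP, the sterol isomerase, had log2 fold changes of 0.14 (95% interval -0.04 to 0.32) and 0.07 (-0.18 to 0.31).

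**Figure D4:**
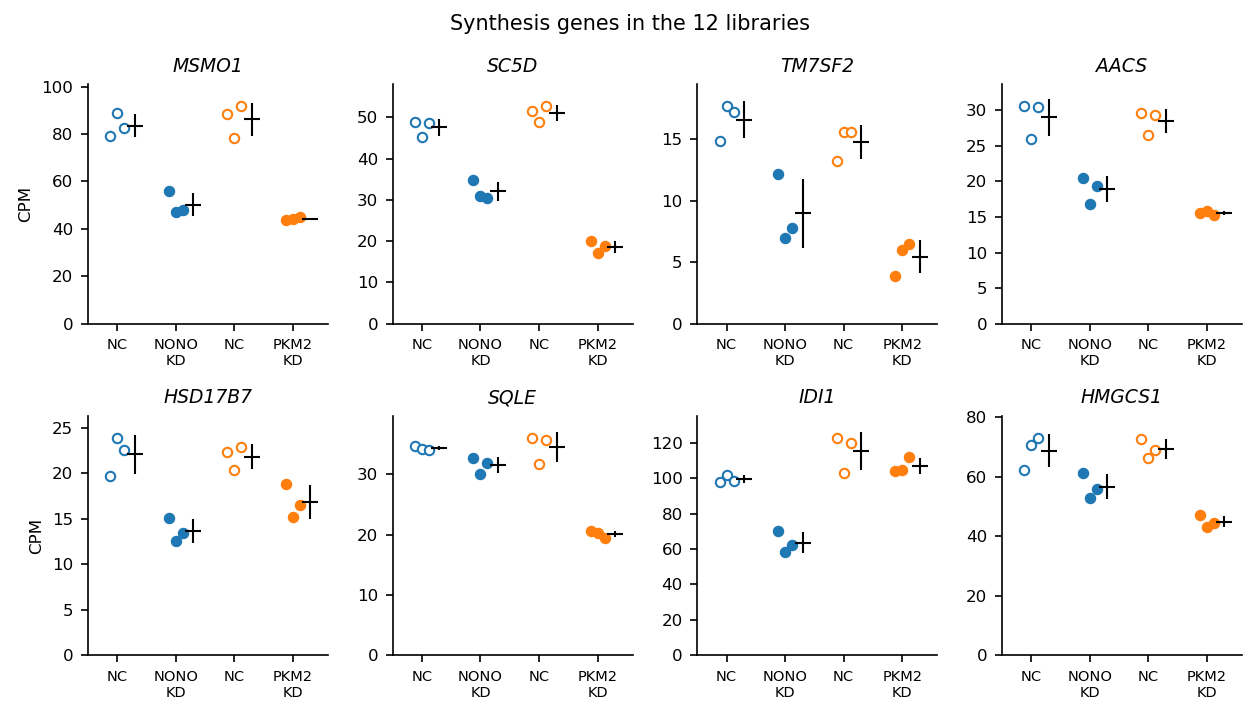
CPM (y axis, from 0) of 8 synthesis genes in the 12 libraries, as open points for NC and filled points for knockdown (KD), blue for the NONO and orange for the PKM2 experiment, with the group mean and SD as a black cross and bar. MSMO1 falls in both experiments, SC5D falls further and SQLE falls with PKM2 knocked down, and IDI1 falls with NONO knocked down while its PKM2 groups overlap.

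Of the 5 SREBP control genes, SREBF1 and SCAP passed the test of the difference between the responses and SREBF2, INSIG1 and INSIG2 did not. Over all genes 53.1% passed that test. SREBF1 (chr17:17810399-17837002) held 95.4, 130 and 120 CPM in NC and 156, 130 and 134 CPM after NONO knockdown (0.28 ± 0.10, adjusted P = 0.0498), so the groups met at 130 CPM. The call was lost without the third NC library (0.32, adjusted P = 0.0683) and without the first (0.20, adjusted P = 0.21), the second (0.34, adjusted P = 0.0645) or the third (0.31, adjusted P = 0.0886) knockdown library, and without the first NC library the change was 0.18 (adjusted P = 0.0225). In the PKM2 experiment SREBF1 went from 74.0, 72.1 and 77.1 CPM to 40.2, 39.3 and 39.8 CPM (-0.90 ± 0.05, adjusted P = 3.81e-08), far apart. The difference of the responses was -1.20 ± 0.13 (adjusted P = 3.97e-07). RAI1, which shares exon bases with SREBF1 on the opposite strand, changed by 0.03 and -0.67 in the 2 experiments, and its part in the SREBF1 values was not tested. SREBF1 yields more than 1 SREBP1 isoform from different start sites, which gene-level values do not separate.

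SREBF2 (chr22:41833079-41907308), whose promoter holds the sterol element shown above, fell by less. Its values were 188, 218 and 213 CPM in NC and 188, 173 and 174 CPM after NONO knockdown (-0.21 ± 0.06, adjusted P = 0.0178), and 193, 196 and 205 against 162, 162 and 150 CPM in the PKM2 experiment (-0.33 ± 0.05, adjusted P = 1.09e-04). The PKM2 groups lay apart, while in the NONO experiment the first library of each group stood at 188 CPM. The NONO call was lost without the second (-0.16, adjusted P = 0.0736) or the third NC library (-0.18, adjusted P = 0.0778) and without the second (-0.19, adjusted P = 0.0895) or the third knockdown library (-0.19, adjusted P = 0.0807). SCAP, the escort of the SREBPs, fell after PKM2 knockdown from 72.1, 65.6 and 70.8 CPM to 47.5, 52.9 and 51.5 CPM (-0.46 ± 0.06, adjusted P = 3.89e-05). After NONO knockdown SCAP had a log2 fold change of 0.02 (95% interval -0.08 to 0.12), and the responses differed by -0.49 ± 0.08 (adjusted P = 7.13e-05).

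The retention proteins did not move as a pair. INSIG2 fell in both experiments, by 0.58 ± 0.13 after NONO knockdown (adjusted P = 0.00648) and by 0.25 ± 0.06 after PKM2 knockdown (adjusted P = 0.00186). Its NC libraries in the NONO experiment held 26.9, 39.4 and 41.2 CPM, with the first far below the others, against 24.6, 25.0 and 22.6 CPM after knockdown. INSIG1, itself an SREBP target, held 75.6, 127 and 115 CPM in NC and 159, 128 and 133 CPM after NONO knockdown (0.40 ± 0.15, adjusted P = 0.06). All 3 knockdown libraries lay higher, the lowest at 128 CPM against 127 CPM in the highest NC library. The change was called without the first NC library (0.22, adjusted P = 0.0121) or the second (0.56, adjusted P = 0.0136), and with a gene-length offset (0.42, adjusted P = 0.0478). It was not called without the third NC library (0.47, adjusted P = 0.0655). Nor was it called without the first (0.30, adjusted P = 0.228), the second (0.46, adjusted P = 0.0864) or the third knockdown library (0.44, adjusted P = 0.107). Without the low-count filter it was called at a nearly equal change (0.41, adjusted P = 3.61e-12). That P does not reflect a larger change, and why it was so low was not tested. After PKM2 knockdown INSIG1 held 66.6, 60.1 and 61.5 CPM against 65.6, 51.6 and 72.0 CPM (-0.01, 95% interval -0.21 to 0.19), with the NC range around the knockdown range.

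All 4 transport and storage genes responded differently to the knockdowns by the test of the difference, each with the higher log2 fold change in the PKM2 experiment. Over all 15995 genes in that test 25.7% had a higher and 27.4% a lower response to PKM2 knockdown, and of the 32 cholesterol genes 8 were higher and 7 lower. Summed TPM of the 4 genes was 590, 626 and 616 in NC and 901, 916 and 889 after PKM2 knockdown, with NPC2 the largest contributor, and 548, 655 and 642 against 613, 571 and 596 in the NONO experiment. The sums lay apart in the PKM2 experiment and overlapped in the NONO experiment.

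NPC2, the soluble lysosomal protein that hands cholesterol to NPC1, held 130, 124 and 131 CPM in NC and 217, 214 and 246 CPM after PKM2 knockdown (0.81 ± 0.06, adjusted P = 1.84e-07). After NONO knockdown it held 115, 111 and 113 CPM against 98.6, 108 and 110 CPM (0.10, adjusted P = 0.172), with every knockdown library higher by a small step. Its responses differed by 0.71 ± 0.08 (adjusted P = 1.14e-06). NPC1, the lysosomal membrane transporter (chr18:23506184-23586898), went from 229, 249 and 238 CPM to 363, 374 and 328 CPM with PKM2 knocked down (0.57 ± 0.06, adjusted P = 3.13e-06), without overlap. In the NONO experiment NPC1 held 243, 326 and 302 CPM in NC and 255, 225 and 228 CPM after knockdown (-0.30 ± 0.09, adjusted P = 0.0258), and the first NC library lay within the knockdown range. That fall was not called without the second (-0.20, adjusted P = 0.0991) or the third NC library (-0.26, adjusted P = 0.0887), or without the second (-0.27, adjusted P = 0.112) or the third knockdown library (-0.27, adjusted P = 0.103). The difference of the NPC1 responses was 0.86 ± 0.12 (adjusted P = 9.38e-06). RMC1, which overlaps NPC1 on the opposite strand, changed by -0.36 and -0.07, and its part in the NPC1 values was not tested.

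SOAT1, which esterifies cholesterol for storage, held 184, 174 and 173 CPM in NC and 279, 276 and 275 CPM after PKM2 knockdown (0.64 ± 0.04, adjusted P = 1.41e-07). In the NONO experiment it held 186, 157 and 162 CPM in NC and 188, 180 and 191 CPM after knockdown (0.14, adjusted P = 0.0951), and was called without the first NC library (0.23, adjusted P = 6.43e-05). The 3 PKM2 knockdown libraries lay within 275 to 279 CPM and stood well above NC, while in the NONO experiment the first NC library lay inside the knockdown range. Its responses differed by 0.49 ± 0.08 (adjusted P = 7.18e-05). STARD4, a cytosolic sterol carrier and SREBP target, fell after NONO knockdown from 94.4, 99.8 and 105 CPM to 71.4, 67.8 and 66.9 CPM (-0.54 ± 0.05, adjusted P = 2.51e-05). After PKM2 knockdown it held 118, 114 and 110 CPM against 109, 102 and 111 CPM (0.09, adjusted P = 0.148), called only without the third knockdown library (0.12, adjusted P = 0.0263). The groups lay apart in the NONO and met in the PKM2 experiment, and the responses differed by 0.62 ± 0.08 (adjusted P = 2.40e-06).

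Of the LXR and export genes, none of the 4 tested passed after NONO knockdown, where 33.4% of all genes passed. After PKM2 knockdown 2 rose and 1 fell, where 68.4% of all genes passed in either direction. NR1H2, which encodes LXR beta (chr19:50329653-50382982), held 64.3, 61.8 and 63.0 CPM in NC and 163, 166 and 180 CPM after PKM2 knockdown (1.43 ± 0.05, adjusted P = 1.10e-09). In the NONO experiment its values were 69.2, 72.3 and 68.3 CPM in NC and 71.6, 75.5 and 74.6 CPM after knockdown (0.08, 95% interval -0.02 to 0.17). The PKM2 knockdown libraries stood far above their NC libraries, and the responses differed by 1.34 ± 0.07 (adjusted P = 1.42e-10). NR1H3, which encodes LXR alpha, was lower in level, at 11.9 ± 2.82 TPM in NC of the NONO experiment against 47.8 ± 2.17 TPM for NR1H2, and had log2 fold changes of 0.02 (-0.32 to 0.36) and -0.22 (-0.49 to 0.06).

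ABCA1, the LXR-driven pump that loads cholesterol onto apolipoproteins (chr9:104781002-104928237), went against NR1H2. It held 52, 58 and 65 estimated counts in the NC libraries of the PKM2 experiment and 11, 9 and 2 after knockdown, or 1.77 to 2.30 CPM against 0.0793 to 0.456 CPM (-2.78 ± 0.42, adjusted P = 9.63e-05). The groups lay apart, but the gene stood near the limit of detection at this depth, and the third knockdown library, which lay far from its replicates, was the lowest. Without that library the change was -2.31. In the NONO experiment ABCA1 held 2.66, 6.77 and 5.38 CPM in NC and 6.13, 4.37 and 5.14 CPM after knockdown (0.08, 95% interval -0.46 to 0.61), and the NC libraries spanned the knockdown range. The responses differed by -2.87 ± 0.53 (adjusted P = 2.10e-04). MYLIP, a further LXR target, rose after PKM2 knockdown (0.49 ± 0.09, adjusted P = 3.64e-04) and stood at -0.03 after NONO knockdown, with a difference of 0.51 ± 0.14 (adjusted P = 0.00512).

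**Figure D5:**
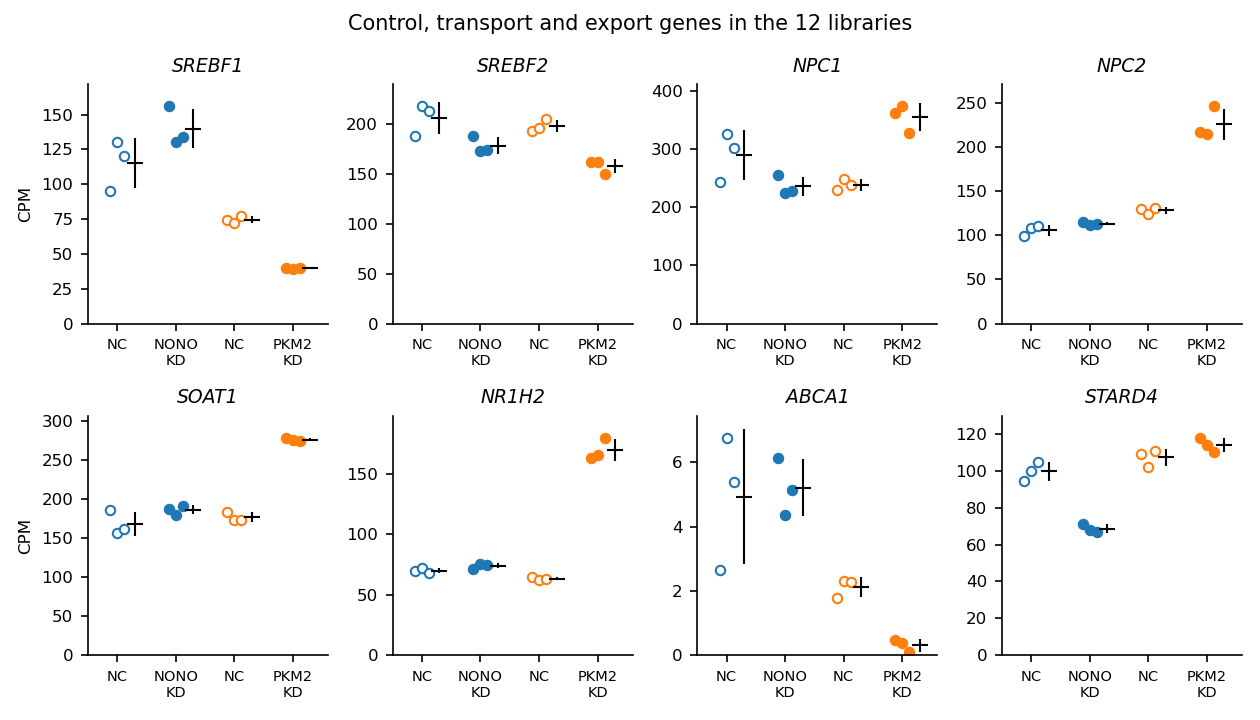
CPM (y axis, from 0) of 8 genes of SREBP control, transport and export in the 12 libraries, as open points for NC and filled points for knockdown (KD), blue for the NONO and orange for the PKM2 experiment, with the group mean and SD as a black cross and bar. SREBF1 falls and NPC1, NPC2, SOAT1 and NR1H2 rise with PKM2 knocked down, STARD4 falls with NONO knocked down, and ABCA1 stays below 7 CPM throughout.

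Beyond these genes, a list of 28 further sterol genes was followed in both experiments, of which 24 were tested after NONO knockdown and 25 after PKM2 knockdown. With NONO knocked down 7 rose and 7 fell, at a median log2 change of 0.03, and with PKM2 knocked down 9 rose and 11 fell, with a median of -0.10. These are 29.2% each way in the NONO experiment, where 16.2% of all genes rose and 17.2% fell. In the PKM2 experiment they are 36% and 44%, where 33.6% of all genes rose and 34.7% fell. TMEM97, a sterol-regulated membrane protein that binds NPC1, had the largest change, from 56.9, 49.4 and 51.0 CPM to 20.9, 21.8 and 20.6 CPM after PKM2 knockdown (-1.31 ± 0.07, adjusted P = 1.58e-08). ERLIN2, which helps to degrade sterol-regulated enzymes, rose there from 27.8, 26.2 and 28.6 CPM to 67.5, 69.7 and 62.3 CPM (1.27 ± 0.06, adjusted P = 1.03e-08). RXRB, a partner of the LXRs, rose by 1.19 ± 0.06, and NCEH1, a cholesterol ester hydrolase, by 0.98 ± 0.05 with PKM2 knocked down. After NONO knockdown the largest called changes were those of RXRA (0.55 ± 0.05) and RXRB (0.47 ± 0.08), both partners of the LXRs, of C12orf49 (-0.40 ± 0.08), a gene needed for SREBP processing, and of ERLIN1 (0.39 ± 0.05). GRAMD1C, of a family of sterol transfer proteins, was among the 4 genes of the list whose responses differed most, at -0.89 ± 0.21 with a fall of 0.92 ± 0.13 after PKM2 knockdown.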

How the data were processed

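MDA-MB-231 poly(A) RNA was measured in 12 libraries, 3 for each of 4 groups taken from the labels. The authors deposited, for each experiment, estimated counts and TPM values for every gene in each library. Per the labels, the processing notes name fastp, HISAT2, StringTie, RSEM and build hg19, without versions or roles. The tables also hold the authors' group means, fold changes and P values, which were not used. Column names repeat between the tables, so columns were assigned by table, and the fall of the targeted gene was checked. Estimated counts were rounded and tested with edgeR 4.0.16 in R 4.3.3 (quasi-likelihood, TMM, filterByExpr), without a replicate block, on 6 libraries per experiment, and as an interaction over 12 libraries for the difference between the responses. P values were adjusted over all genes tested. SE came from the F statistic, and CPM are TMM-normalized. Depth was 19861762 to 28455268 counts per library. Replicates differed by 2.34 to 13.2 in chi-square per degree of freedom over genes, so none was counted as a repeat of another.

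Alternatives were DESeq2 1.42.0, RLE factors, no low-count filter, the block, limma 3.58.1 on log2(TPM + 1) or log2(TPM + 0.1) above a mean-TPM floor of 1 and without that floor, a gene-length offset, other cutoffs and each library left out. The scripts were tested on simulated data. Per-library values are given for genes called with a fold of at least 1.5, for genes called in opposite directions, and for a few key genes of control, synthesis and export, and among further sterol genes the 4 with the largest change in each test are named. The genes and lists were chosen with earlier results of these data known. Gene locations and overlaps come from GENCODE 29 (GRCh38) and promoters from RefSeq (GRCh38.p14), a build other than that of the processing notes, and serve for location only.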

Additional observations from a re-analysis of the deposited data

Results flagged for a closer look

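For 15 of the 32 genes tested, the response to PKM2 knockdown differed from the response to NONO knockdown by the interaction test (edgeR's quasi-likelihood test, adjusted P below 0.05), where 25.7% of all genes had a higher and 27.4% a lower response to PKM2 knockdown. Values are log2 fold changes after PKM2 knockdown minus those after NONO knockdown. The 7 lower ones were ABCA1 (-2.87), SREBF1 (-1.20), SC5D (-0.90), SQLE (-0.67), SCAP (-0.49), HMGCS1 (-0.36) and LSS (-0.32). The 8 higher ones were NR1H2 (1.34), NPC1 (0.86), NPC2 (0.71), STARD4 (0.62), ACAT2 (0.56), IDI1 (0.52), MYLIP (0.51) and SOAT1 (0.49). All 15 calls held with each of the 12 libraries left out in turn. With limma on log2(TPM + 1), the differences of HMGCS1 and MYLIP were not called (adjusted P = 0.115 and 0.0517). Without limma's TPM filter, those of STARD4 (0.41, adjusted P = 0.0679) and ABCA1 (-0.36, adjusted P = 0.189) were not called either. The experiments differ in knockdown target, NC libraries, depth and table, and these cannot be told apart in the difference.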

How the results depend on the processing

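No value of the alternatives turned a called direction. Of the calls, 8 of 18 after NONO knockdown, 17 of 20 after PKM2 knockdown and 11 of 15 of the differences held throughout. These counts cover every alternative fit that tested the gene, each library's removal included, but not the other cutoffs. ABCA1 lay below the mean-TPM floor of 1 and was not tested by limma with that floor. At a fold above 2 with an unadjusted P below 0.05, 0 genes rose and 0 fell after NONO knockdown, 1 rose and 3 fell after PKM2 knockdown, and 1 was higher and 2 lower in the difference. At a fold of at least 1.5 these counts were 0 and 6, 3 and 8, and 4 and 4, or 18.8%, 34.4% and 25.0% of the genes, against 7.94%, 38.5% and 32.2% of all genes. Without the low-count filter, 5 rose after NONO knockdown and 11 were lower in the difference. Genes higher after NONO knockdown numbered 1 with limma on log2(TPM + 1) or log2(TPM + 0.1), and 0, with 8 lower, without the TPM filter. After PKM2 knockdown limma on log2(TPM + 1) called ACAT2, FDPS, LSS, MVK and NSDHL lower besides. The cause was not tested. The median after PKM2 knockdown was -0.13 with DESeq2, -0.14 without the count filter, -0.27, -0.28 and -0.27 with limma at the pseudocounts of 1 and 0.1 and without its filter, and -0.15 with the length offset, while the median of all genes was -0.105 with limma at 0.1. NONO itself, higher by 0.30 after PKM2 knockdown in edgeR, was not called with limma (0.12 throughout, adjusted P = 0.128, 0.124 and 0.242).

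When single libraries were left out, 0 to 5 genes rose and 11 to 16 fell after NONO knockdown, 5 to 6 rose and 14 to 17 fell after PKM2 knockdown, and 8 to 10 were higher and 7 to 11 lower in the difference. For these 3 comparisons the medians ran from -0.23 to -0.13, from -0.23 to -0.10 and from -0.14 to -0.02. Knockdown over NC, summed TPM of the transport genes ran from 0.915 to 0.997 in the NONO experiment, and that of the sterol arm from 0.66 to 0.701 in the PKM2 experiment. Without both libraries that stood apart, an alternative chosen after seeing the data, FDPS, CYP51A1, HSD17B7 and INSIG2 were called besides in the difference.

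With the replicate number as a block, 1 gene rose after NONO knockdown, and LSS, SREBF1 and NPC1 lost their calls. Same-numbered libraries correlated by -0.065 to 0.036 in their deviations, so the numbers were not taken to pair them. Depth limits ABCA1 and ABCG1.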

Other observations

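In some groups 1 library was the lowest or the highest for many of the cholesterol genes. The second NC library of the PKM2 experiment was the lowest of its 3 for 25 of 32 genes, the second NONO knockdown library for 23 of 32, and the first NONO knockdown library was the highest of its 3 for 24 of 32. In the NONO experiment, NC library 1 was the lowest for 18 of 32 and the highest for 9. The 3 PKM2 knockdown libraries were the lowest for 9, 14 and 8 genes and the highest for 12, 6 and 13. These counts were chosen after the values were seen, genes of 1 library are not independent, and no test was run.

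The NC values of the experiments come from separately normalized tables and are set side by side for a few genes, without a test. The annotations of the tables also differ, with 60623 genes in the NONO and 60671 in the PKM2 experiment. Of the shared identifiers, 97.4% have equal lengths in both. SREBF1 held 95.4 to 130 CPM in the NC libraries of the NONO experiment and 72.1 to 77.1 CPM in those of the PKM2 experiment. INSIG1 held 75.6 to 127 and 51.6 to 72.0 CPM, and ABCA1 2.66 to 6.77 and 1.77 to 2.30 CPM. For SOAT1 the NC values were 157 to 186 and 173 to 184 CPM, while its TPM were 31.4 to 37.7 and 46.9 to 50.2, so the choice of unit changes whether the NC groups overlap. The part of the differing annotations in this TPM gap was not tested.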
